A study of Mus musculus with 12 samples.

Results

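The cytosolic ribosomal protein genes encode the proteins of the ribosome in the cytoplasm, and they were followed here in mouse muscle that received the human long noncoding RNA *FRAIL1*. Members were the protein-coding genes of the count table with a symbol of *Rpl* or *Rps* followed by a digit, or *Rplp* or *Rpsa*. Of 135 rows with such a symbol 101 were protein-coding, and 10 *Rps6k* kinase genes, *Rps19bp1* and 2 genes with "-ps" in their name were left out, which left 88 members of 27179 genes. They were 43 genes of the large subunit, 31 of the small subunit, 3 of the stalk (*Rplp0*, *Rplp1* and *Rplp2*) and 11 paralogs or copies such as *Rpl3l*. A total of 85 passed the filter on low counts and were tested, together with 15502 genes in all. The other members were *Rpl10l* (0 to 2 reads in a muscle), *Rpl39* (0 to 7 reads) and *Rpl39l* (4 to 24 reads).

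The tibialis anterior (TA) of male wild-type C57BL/6N mice, bought at 6 to 8 weeks of age and used within 2 weeks, was electroporated with 10 μg of plasmid. One TA of each mouse received the empty vector (Control muscles) and its contralateral TA the vector with full-length human *FRAIL1* (*FRAIL1* muscles), and both were removed after 7 days, 6 muscles in each group. Control muscles were therefore injected and electroporated too, and the plasmid reaches an unknown share of the fibers. Muscles were numbered 1 to 6 in each group, and same-numbered muscles were taken as the 2 legs of 1 mouse, which the labels do not state. Total counts ranged from 45018389 to 59309210 in Control and from 44848322 to 60527385 in *FRAIL1* muscles, and members took between 0.581% and 0.812% of them.

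Ribosomes join amino acids into protein. The small subunit reads the mRNA, the large subunit forms the peptide bond, and the stalk of the large subunit recruits translation factors. The proteins are made in near-equal amounts, and most of their mRNAs begin with a C and a run of pyrimidines (a terminal oligopyrimidine, or TOP, tract) through which mTORC1 and LARP1 control their translation. Striated muscle is unusual in that the paralog *Rpl3l* takes the place of *Rpl3*, a protein next to the site of peptide bond formation.

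The results turn on this pair, so the start of both coding sequences is printed, from GENCODE vM21, with the differing bases in capitals.
Rpl3: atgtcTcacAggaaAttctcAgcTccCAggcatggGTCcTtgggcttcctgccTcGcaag
Rpl3l: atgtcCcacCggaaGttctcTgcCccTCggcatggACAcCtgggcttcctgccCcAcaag
Of the first 60 bases 13 differed. Over the whole coding sequences, of 1212 and 1224 bases, 74.9% of 1205 aligned bases were identical and the longest identical run was 22 bases, so reads of 1 paralog do not match the other along a read's length. *Rpl3* is different in another respect: 79.4% of the 100-base windows of its main transcript also occur in transcripts of 7 other genes, all annotated as pseudogenes, against 0% for *Rpl3l*. The authors counted uniquely mapping reads only, so reads from such windows could be lost, by an unknown amount.

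*Rpl3* rose and was the member with the largest fold change. Its level in CPM, counts scaled to library size with edgeR's TMM factors, was 17.6, 17.2, 14.3, 17.8, 23.3 and 18.4 in Control muscles 1 to 6 and 28.8, 23.5, 19.9, 26.5, 37.5 and 25.4 in *FRAIL1* muscles 1 to 6. The groups overlapped through Control muscle 5, which lay above *FRAIL1* muscle 3, and in all 6 mice the *FRAIL1* muscle was higher. Means were 18.1 ± 2.92 and 26.9 ± 5.96 CPM (SD, n = 6). The change was 0.57 on the log2 scale (standard error 0.139), and the p-value adjusted over all genes was 0.0324 (edgeR quasi-likelihood test). On GRCm38 *Rpl3* (Gene ID 27367) is found on chromosome 15, bases 80077781 to 80083406. The call depended on single muscles: without Control muscle 1, 2, 3, 4 or 6 or *FRAIL1* muscle 1 or 4 the adjusted p-value was between 0.0553 and 0.0681, and the log2 fold change was between 0.45 and 0.66 whichever muscle was left out. *Rpl3* passed in 17 of 24 alternative settings. Among them were edgeR with the mouse as a block (adjusted p = 0.00107), the DESeq2 Wald test (0.00305) and limma voom (0.00708).

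*Rpl3l* measured 666, 695, 675, 647, 743 and 735 CPM in Control muscles 1 to 6 and 576, 567, 672, 578, 364 and 573 CPM in *FRAIL1* muscles 1 to 6. *FRAIL1* muscle 5 was far below the rest, *FRAIL1* muscle 3 lay within the Control range, and the *FRAIL1* muscle was the lower in 6 of 6 mice. Means were 694 ± 38.6 and 555.1 ± 102 CPM (SD, n = 6). The log2 fold change of -0.32 had a standard error of 0.110 and did not pass the threshold (edgeR adjusted p = 0.0821). It was under 0.05 without *FRAIL1* muscle 3 (0.0335) or *FRAIL1* muscle 5 (0.0352), where the log2 fold change was -0.38 and -0.23, in the DESeq2 Wald test (0.0390, or 0.0129 with the block), with limma voom (0.0281), and in edgeR with the block and without both muscles numbered 5 (0.0172). *Rpl3l* (Gene ID 66211) is found on chromosome 17, bases 24727826 to 24736143.

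The ratio of the pair within a library needs no scaling, and it was lower in the *FRAIL1* muscles. Control muscles had 38.9 ± 5.06 *Rpl3l* reads for each *Rpl3* read (SD, n = 6; range 31.9 to 47.1), and *FRAIL1* muscles had 22.0 ± 7.71 (SD, n = 6; range 9.71 to 33.7). *FRAIL1* muscle 3 alone lay within the Control range. On the log2 scale the ratio was 5.27 ± 0.187 and 4.37 ± 0.593 (SD, n = 6), a difference of -0.90 or a fold of 0.535 (exact two-sided permutation test over muscles, p = 0.00433, where the smallest p it can give is 0.00216). Differences within mice 1 to 6 were -0.92, -0.74, -0.48, -0.73, -1.71 and -0.82. With the numbers as pairs an exact sign-flip test over the 6 mice gave p = 0.0312, the smallest it can give. Mouse 5 had the largest difference, and without both of its muscles the difference was -0.74 (exact permutation p = 0.00794, the smallest that 5 against 5 muscles can give). As the ratio uses *Rpl3* reads that mapped uniquely, its absolute size does not give the share of each mRNA, only how the ratio moved.

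**Figure D1:**
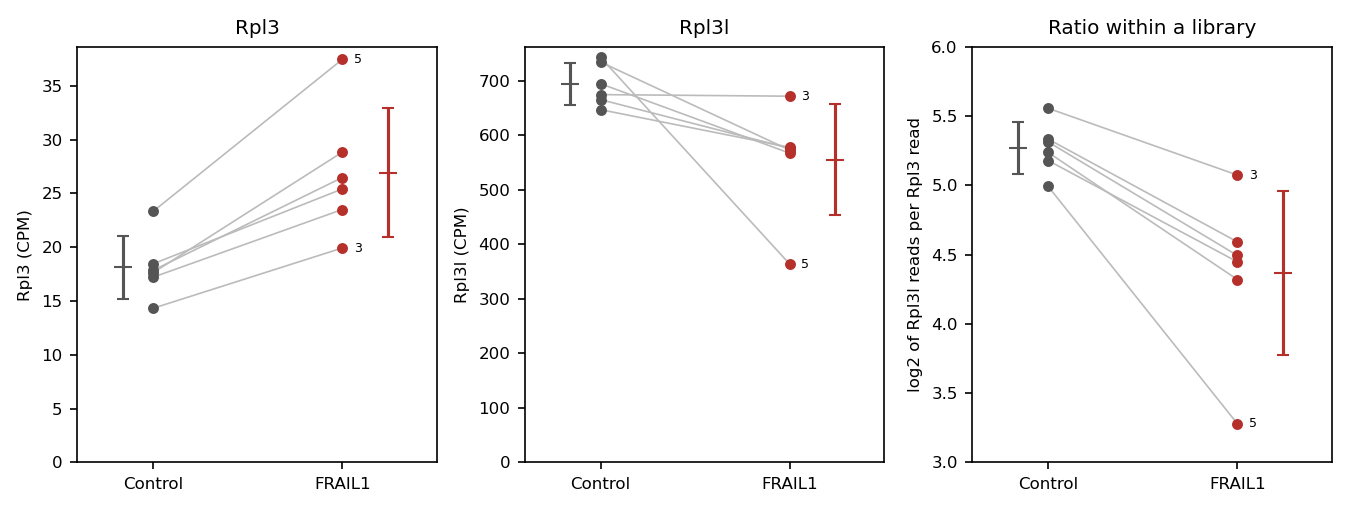
CPM of Rpl3 and of Rpl3l and the log2 ratio of their reads in the 6 Control and 6 FRAIL1 muscles. Points are muscles, lines join muscles of 1 number, bars beside the points are means ± SD, muscles 3 and 5 are numbered, and the ratio axis begins at 3. Each line rises for Rpl3 and falls for Rpl3l and the ratio, with FRAIL1 muscle 5 at the extreme of all 3 panels.

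Markers of other cells and of new fibers differed between the same muscles. Of 8 genes of satellite cells and regenerating fibers, 5 rose (*Myh3*, *Myh8*, *Mymk*, *Mymx* and *Myog*), 62.5% against 6.28% of all genes called. The summed level of the 8 was 169 to 219 CPM in Control and 332 to 1563 CPM in *FRAIL1* muscles. *FRAIL1* muscle 5 was the highest at 1563 CPM, and the next was at 664. Of 7 fibroblast markers *Col1a2* rose (edgeR adjusted p = 0.0472, but 0.0642 with the mouse as a block), with sums of 1217 to 2352 and 2423 to 6204 CPM, the last in *FRAIL1* muscle 5 and the next at 3094. That is 14.3% of the list against 6.28% of all genes. An unadjusted p-value under 0.05 was reached by 5 of the 7 (71.4% against 27.7%), and none passed with the mouse as a block. Of 9 macrophage markers none passed the edgeR test, and their sums were 234 to 365 and 294 to 760 CPM. An unadjusted p-value under 0.05 was reached by 8 (88.9% against 27.7% of all genes), and 6 rose with the mouse as a block (66.7% against 14.1% called). Of 7 genes of the mature fiber *Ckm* fell, and their sums were 114040 to 135726 in Control and 89215 to 120384 CPM in *FRAIL1* muscles, so the labelled tissue was borne out by its own genes in every muscle. *Cdk1* rose among 5 proliferation genes and *Tek* fell among 5 endothelial genes. With the mouse as a block 8 regenerating-fiber and 3 proliferation genes rose, and 2 fiber and 2 endothelial genes fell. In lists of lymphocytes, neutrophils, Schwann cells, red blood cells, adipocytes and smooth muscle, 20 genes were tested and none passed, 3 had an unadjusted p-value under 0.05 and 1 passed with the mouse as a block. No marker was at 0 in every muscle, and *Ms4a1*, *S100a8* and *S100a9* were at 0 in some. The part of these markers in the change of *Rpl3* and *Rpl3l* was not tested. Counts come from whole muscle, where fewer cells of a type and less RNA per cell cannot be told apart.

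Sequence before the start of *Rpl3l* is shown because the paralog is restricted to striated muscle, and CANNTG, the letters bound by MyoD and its relatives, is in capitals. The 250 bases, from RefSeq on GRCm38.p6, are chr17:24727576-24727825 on the plus strand.
Rpl3l: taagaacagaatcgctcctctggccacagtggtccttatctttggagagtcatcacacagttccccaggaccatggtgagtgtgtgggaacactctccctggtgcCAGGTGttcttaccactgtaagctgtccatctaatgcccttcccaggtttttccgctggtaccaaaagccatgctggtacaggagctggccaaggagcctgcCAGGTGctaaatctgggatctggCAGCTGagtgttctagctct
It holds 3 such matches, 3 or more occur in 11.9% of 18458 genes with a promoter entry and any match in 66.5%. The motif reads the same on both strands. Of the 88 members 68 had an entry, and 3 of them held 3 or more. *Rpl3* had no entry, so the bases before its start were not searched. A match is a description of letters and not a site of binding.

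Across the other members changes were small and mostly upward. Of 85 tested members 71 (83.5%) had a fold change above 1, against 51.6% of all 15502 genes. Their median log2 fold change was 0.107 (7.73% higher), with quartiles of 0.050 and 0.181, beside 0.00959 over all genes, and it lay between 0.101 and 0.114 under the other scalings. *Rpl3* was the 1 member past the threshold (1.18%), against 6.28% of all genes called by the same test, of which 4.43% were higher and 1.85% lower. An unadjusted p-value under 0.05 was reached by 21 members (24.7%), against 27.7% of all genes, with 18 higher (21.2%) and 3 lower (3.53%) against 15.2% and 12.5%. No member had groups that did not overlap, against 4.88% of all genes (3.12% higher and 1.77% lower). The number called depended on the test. It was 11 members (12.9%) with the mouse as a block, against 14.1% of all genes, with 10 higher (11.8%) and 1 lower (1.18%) against 7.48% and 6.62%. It was 10 members (11.8%) in the DESeq2 Wald test, against 14.3%, and 10 with limma voom, against 11.3%. Apart from *Rpl3*, those with the block were *Rpl10a*, *Rpl13a*, *Rpl18*, *Rpl21*, *Rpl26*, *Rpl41*, *Rps10*, *Rps24* and *Rpsa*, which were higher, and *Rpl15*, which was lower. In either direction together each of these shares was below or close to that of all genes. The share of members called higher depended on the rule. It was above that of all genes at the unadjusted threshold (21.2% against 15.2%) and with the block (11.8% against 7.48%). In the main adjusted test it was below (1.18% against 4.43%). The DESeq2 Wald test called 7 of 85 members higher, beside 1272 of 15502 genes, and limma voom 7, beside 943.

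**Figure D2:**
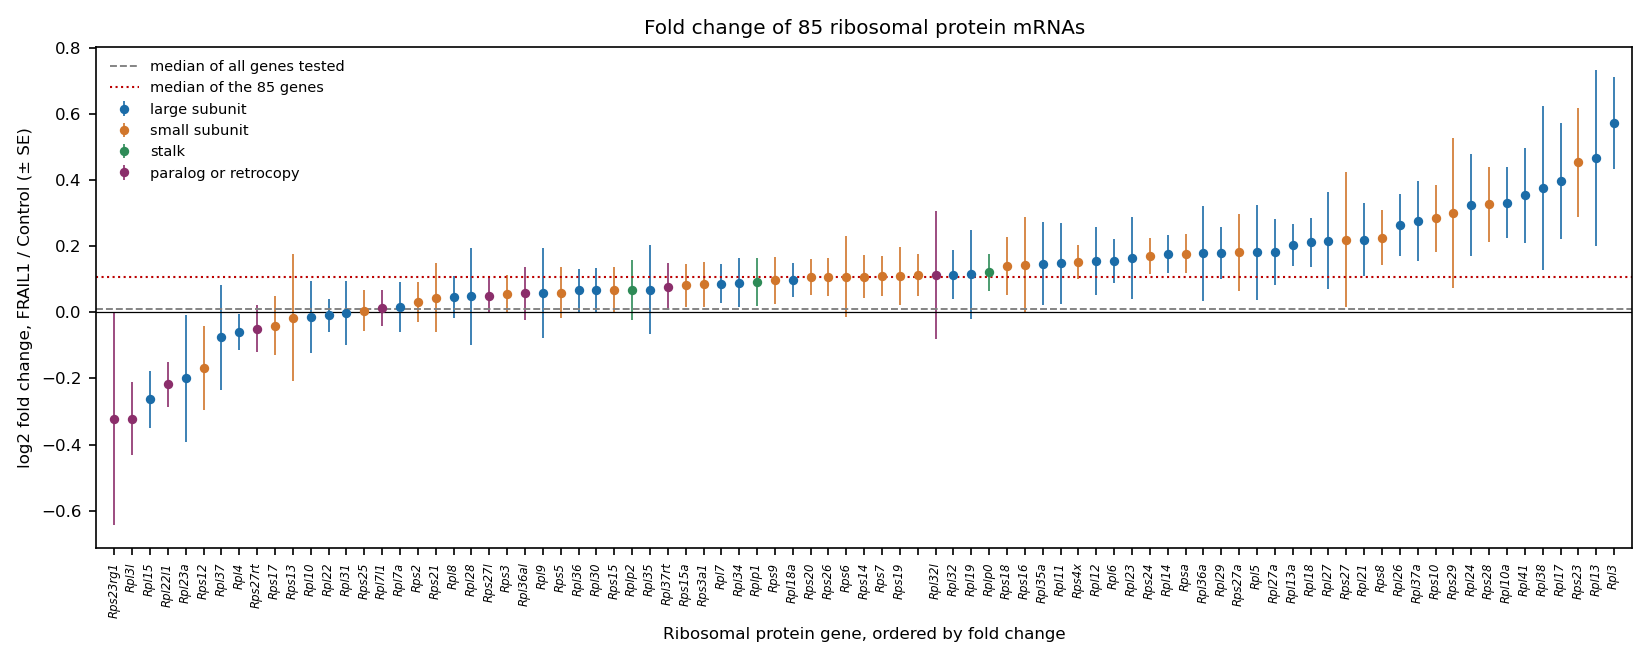
Log2 fold change (FRAIL1 over Control, edgeR) of the 85 tested ribosomal protein genes in order of size. Points are estimates, bars are ± 1 standard error, colors are the classes of genes, 1 point carries no name, and the lines mark 0, the median of all genes tested (0.00959) and that of the 85 genes (0.107). Points above 0 number 71, and Rpl3 is at the right end.

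The shift was unequal between mice. The *FRAIL1* muscle was higher for 75, 33, 69, 77, 53 and 48 of the 85 members in mice 1 to 6. These were 88.2%, 38.8%, 81.2%, 90.6%, 62.4% and 56.5%, against 51.2%, 50.3%, 50.1%, 51.9%, 51.1% and 48.7% of all genes. The median differences in log2(CPM + 0.1) were 0.247, -0.033, 0.150, 0.202, 0.053 and 0.050. Mouse 2 thus had more members lower than higher. Summed over all members the level was 6584 ± 360 CPM in Control and 6821 ± 332 CPM in *FRAIL1* muscles (SD, n = 6). Without *Rpl3l* it was 5890 ± 328 and 6266 ± 347 CPM, so the means differed by about the spread between muscles. As a share of all counts, without TMM scaling, members took 0.626 ± 0.0334% in Control and 0.719 ± 0.0645% in *FRAIL1* muscles (SD, n = 6), a wider gap than that of the scaled sums. *Rpl3l* alone held 10.5% of the Control sum and 8.14% of the *FRAIL1* sum. Of the 85 members 12 were higher in all 6 mice and 2, *Rpl3l* and *Rpl15*, in none. The same counts were not made for all genes, so they cannot be read as particular to the members.

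**Figure D3:**
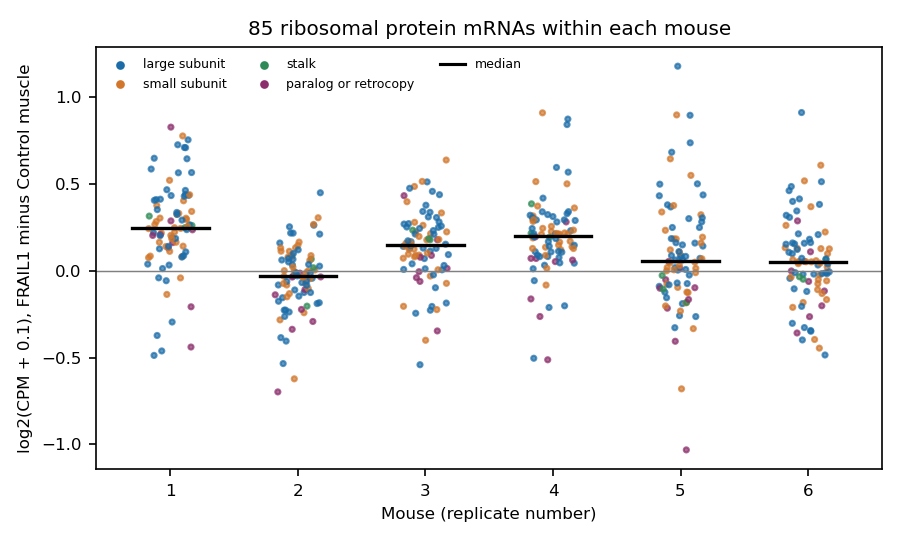
Difference in log2(CPM + 0.1) between the FRAIL1 and the Control muscle of each number for the 85 tested ribosomal protein genes. Each point is a gene colored by class, and the black line is the median, which runs from -0.033 in mouse 2 to 0.247 in mouse 1. The lowest point of mouse 5 is Rpl3l.

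Genes of the large subunit had a median log2 fold change of 0.151, with 35 of 42 tested above 0 (83.3% against 51.6% of all genes). *Rpl3* alone passed (2.38% against 6.28%). An unadjusted p-value under 0.05 was reached by 12 (28.6% against 27.7%), and 8 passed with the block (19.0% against 14.1%). With *Rpl3*, the largest fold changes were those of *Rpl13*, *Rps23*, *Rpl17* and *Rpl38*, and none of these 4 passed the test. *Rpl13* measured 0.751 ± 0.180 and 1.04 ± 0.414 CPM (log2 fold change 0.47, standard error 0.266), *Rpl17* 1.87 ± 0.360 and 2.47 ± 0.546 CPM (0.40, 0.175) and *Rpl38* 0.515 ± 0.111 and 0.670 ± 0.198 CPM (0.38, 0.247). All of these are near the lower end of detection, with shared sequence over 78.9%, 77.1% and 43.0% of the windows of *Rpl13*, *Rpl17* and *Rpl38*. *Rpl41*, whose protein is one of the shortest known, measured 112 ± 19.7 and 143 ± 30.1 CPM, and *Rpl13a*, a member with little shared sequence (1.05%), 147 ± 7.38 and 169 ± 13.4 CPM. Both passed with the mouse as a block (edgeR adjusted p = 0.0488 and 0.0475) and neither did without it (0.130 and 0.0606).

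*Rpl15*, a protein of the core of the large subunit, went the other way. It measured 27.3, 22.9, 24.9, 26.0, 19.3 and 20.8 CPM in Control muscles 1 to 6 and 19.5, 20.6, 21.6, 18.3, 17.3 and 20.5 CPM in *FRAIL1* muscles 1 to 6. Control muscles 5 and 6 lay within the *FRAIL1* range, and all 6 mice had the lower value in the *FRAIL1* muscle. Its log2 fold change of -0.26 had a standard error of 0.0863, and the edgeR adjusted p-value was 0.0729, or 0.0399 with the mouse as a block, 0.0480 without Control muscle 5 and 0.0455 without *FRAIL1* muscle 3. *Rpl15* passed in 8 of 24 alternatives, among them also the DESeq2 Wald test (adjusted p = 0.0408) and limma voom (0.0431). *Rpl23a* measured 1.28 ± 0.216 and 1.11 ± 0.258 CPM, lower in 4 of 6 mice. *Rpl5*, whose protein binds the smallest ribosomal RNA, was among the 5 lowest members per length at 0.701 CPM per kilobase of exon in Control muscles, and measured 2.75 ± 0.487 and 3.12 ± 0.457 CPM.

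Small subunit genes had a median log2 fold change of 0.107, with 28 of 31 above 0 (90.3% against 51.6% of all genes), and none passed. An unadjusted p-value under 0.05 was reached by 7 (22.6% against 27.7%), and 3 passed with the block (9.68% against 14.1%). *Rps23*, a protein of the decoding center, measured 1.63, 2.34, 1.99, 2.25, 1.69 and 2.41 CPM in Control muscles 1 to 6 and 2.86, 2.91, 2.88, 3.26, 3.23 and 1.75 CPM in *FRAIL1* muscles 1 to 6. *FRAIL1* muscles 1 to 5 were above every Control muscle and *FRAIL1* muscle 6 was not. This gene too had few reads, 72 to 173 in a muscle, and 45.0% of its windows are shared. The estimate of 0.45 on the log2 scale (standard error 0.165, edgeR adjusted p = 0.0953) became 0.56 without *FRAIL1* muscle 6 (adjusted p = 0.0430). Of 24 alternatives *Rps23* passed only in that 1. *Rpsa*, which doubles as a laminin receptor, measured 170 ± 8.28 and 192 ± 12.4 CPM and *Rps24* 91.9 ± 4.19 and 103 ± 5.77 CPM. Both were higher in 6 of 6 mice and passed with the mouse as a block, at adjusted p-values of 0.0490 and 0.0492, against 0.0745 and 0.0669 without it. *Rps27a*, made as a fusion with ubiquitin, measured 3.70 ± 0.390 and 4.20 ± 0.586 CPM. *Rps15*, among the highest per length at 296 CPM per kilobase in Control muscles, had an estimated fold change of 0.067 ± 0.0694 (standard error) on the log2 scale, which did not pass.

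The stalk genes differed by less than 10%. *Rplp0*, which holds the stalk to the ribosome and is a common reference in RT-qPCR, measured 580 ± 28.4 CPM in Control and 630 ± 23.96 CPM in *FRAIL1* muscles (SD, n = 6). Its log2 fold change of 0.12 (standard error 0.0572) did not pass (edgeR adjusted p = 0.186), and it was higher with *FRAIL1* in 5 of 6 mice. *Rplp1* measured 221 ± 21.9 and 236 ± 15.8 CPM, and *Rplp2* 57.4 ± 8.37 and 60.2 ± 5.10 CPM. *Rplp1* had the highest level per kilobase of exon, 443 CPM, ahead of *Rpl3l* at 422 and *Rplp0* at 350. Exon length joined the exons of all annotated transcripts of a gene. It was 499, 1643 and 1659 bases for these genes, against 499, 1375 and 1358 bases in their main transcripts. The order of these genes depends on which length is used.

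Paralogs and copies had a median log2 fold change of 0.013 over the 9 tested, the lowest of the classes. *Rpl22l1*, a paralog that can stand in for *Rpl22*, measured 26.5, 23.9, 23.3, 24.5, 22.6 and 22.7 CPM in Control muscles 1 to 6 and 19.5, 18.9, 22.4, 20.4, 23.5 and 18.8 CPM in *FRAIL1* muscles 1 to 6. *FRAIL1* muscle 5 was the exception, above its Control partner, and the log2 fold change of -0.22 (standard error 0.0677) gave an adjusted p-value of 0.0632 by edgeR. Without *FRAIL1* muscle 3 or 5 it was 0.0373 or 0.0243. *Rpl22l1* passed in 7 of 24 alternatives, among them the DESeq2 Wald test (adjusted p = 0.0254) and limma voom (0.0139). In edgeR with the mouse as a block it did not (0.0574). *Rpl22* itself measured 94.3 ± 4.20 and 93.7 ± 3.18 CPM. The log2 ratio of *Rpl22l1* to *Rpl22* reads was -1.98 ± 0.115 and -2.19 ± 0.118 (SD, n = 6), lower in 6 of 6 mice, a difference of -0.21. The same difference was -0.074 for *Rpl7l1* over *Rpl7* (lower in 6 of 6 mice), -0.18 for *Rps27l* over *Rps27* (4 of 6) and -0.13 for *Rpl36al* over *Rpl36a* (4 of 6), with no test made. The difference for *Rpl3l* over *Rpl3*, -0.90, was several times each of these. *Rpl10l* and *Rpl39l*, paralogs known from the testis, had too few reads for a ratio. *Rps4l*, the partner of *Rps4x*, is annotated as a pseudogene and was no member, at 3.62 ± 0.632 and 4.24 ± 1.36 CPM beside 45.2 ± 2.07 and 50.2 ± 2.56 CPM for *Rps4x*. *Rps23rg1*, a retrogene of *Rps23*, was the lowest tested member per length, at 0.318 ± 0.103 and 0.255 ± 0.0841 CPM.

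Recorded levels were lower, as medians, in members that share more of their sequence with other genes. The 17 members with under 10% of their windows shared had a median of 58.4 CPM per kilobase in Control muscles, the 41 with 10 to 50% had 14.5 and the 28 with at least 50% had 3.68. Single members departed from this order, as *Rps2* with 58.5% shared was at 256 CPM per kilobase and *Rps27rt* with 89.5% was at 193. *Rps27*, with 98.4% shared, had 34 to 81 reads in a muscle, while its retrotransposed copy *Rps27rt* had 3080 to 4052. Reads of *Rps27* and *Rps27rt* cannot be told apart with confidence, and no order of abundance between members should be read from these levels. *Rpl39* has 1.75% of its windows shared and at most 7 reads in a muscle. *Rps13* (77.6% shared), *Rpl13* and *Rpl38* were among the 5 lowest tested members per length, at 0.325, 0.290 and 0.950 CPM per kilobase. Fold changes also differed between these sets: the median log2 fold change was 0.052 over the 14 tested members under 10%, 0.109 over 41 and 0.144 over 28, of which 11, 36 and 22 were above 0. The part of shared reads in the upward shift was not tested.

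**Figure D4:**
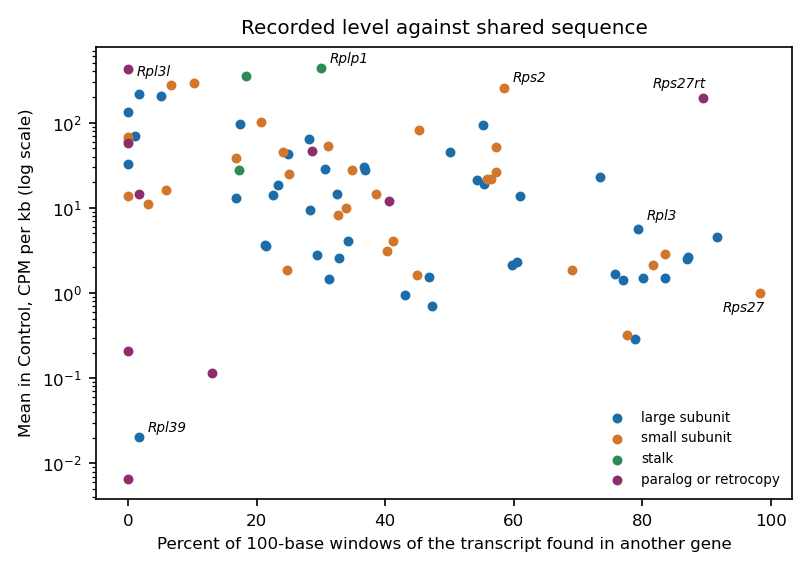
Mean level of 86 ribosomal protein genes in Control muscles, in CPM per kilobase of exon on a log scale, against the percent of 100-base windows of the main transcript that also occur in another gene. Each point is a gene colored by class, and 7 genes are labelled. Levels are lower on the right as medians of the sets in the text, with Rpl3l and Rplp1 at the top and Rpl39 low in spite of little shared sequence.

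The bases at the transcription start are shown for members of either direction that passed in some fit and for *Rpl3l*, as 15 bases before and 15 from the start in RefSeq on GRCm38.p6. Capitals mark a run of C and T of at least 5 that begins with C within 5 bases of the start, the form of a TOP tract.
Rpl13a: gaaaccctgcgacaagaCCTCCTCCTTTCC
Rps24: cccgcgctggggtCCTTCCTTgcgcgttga
Rpl15: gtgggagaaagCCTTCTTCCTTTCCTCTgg
Rpl22l1: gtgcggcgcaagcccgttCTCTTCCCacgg
Rpsa: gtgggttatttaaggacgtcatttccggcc
Rpl3l: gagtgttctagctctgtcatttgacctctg
They lie at chr7:45128731-45128760 (minus strand), chr14:24490663-24490692, chr14:18270972-18271001 (minus), chr3:28805493-28805522, chr9:120127751-120127780 and chr17:24727811-24727840. *Rpl15* and *Rpl22l1*, with lower means in *FRAIL1* muscles, carry a run as *Rpl13a* and *Rps24* do, and none was found in the windows of *Rpsa* and *Rpl3l*. *Rpl3* is not shown because it had no promoter entry. Of 68 members with an entry 32 had such a run (47.1%), against 21.6% of 18458 genes. The 31 tested members with a run had a median log2 fold change of 0.106 and the 34 without one 0.114.

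Genes that work with the ribosome were read from lists chosen by function. Of 16 elongation factors and other TOP mRNAs *Eef1a1* and *Eef1b2* rose and none fell, beside 6.28% called among all genes, and the median log2 fold change of the list was 0.013. *Eef1a1*, the general form of the factor that brings aminoacyl-tRNA to the ribosome, measured 383, 380, 361, 426, 413 and 356 CPM in Control muscles 1 to 6 and 683, 542, 476, 645, 890 and 608 CPM in *FRAIL1* muscles 1 to 6. The groups did not overlap, and the highest value was again that of *FRAIL1* muscle 5. On the log2 scale the rise was 0.73 (standard error 0.120, edgeR adjusted p = 0.00507). *Eef1a2*, which replaces *Eef1a1* in mature muscle, measured 2210 ± 102 and 2208 ± 180 CPM, with a log2 fold change of -0.00090 (standard error 0.0694) whose sign changed between settings. The log2 ratio of *Eef1a2* to *Eef1a1* reads was 2.52 ± 0.145 and 1.81 ± 0.388 (SD, n = 6), lower in 6 of 6 mice. In this pair the general form rose and the mean of the muscle form was near its Control level, while in the other *Rpl3* rose and the mean of *Rpl3l* was lower without passing the test. *Eef1b2*, a subunit of the exchange factor of Eef1a, measured 114 ± 6.21 and 140 ± 17.1 CPM, a rise of 0.30 on the log2 scale (standard error 0.0772, edgeR adjusted p = 0.0364).

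Of 99 ribosome biogenesis genes *Nsa2* rose and none fell (1.01% against 6.28% of all genes), 17 had an unadjusted p-value under 0.05 (17.2% against 27.7%), and with the mouse as a block 2 rose and 2 fell (4.04% against 14.1%). The median log2 fold change of the list was -0.0086. *Nsa2*, an assembly factor of the large subunit, measured 29.1 ± 0.967 and 35.8 ± 2.36 CPM, and its groups did not overlap (log2 fold change 0.30, standard error 0.0535, edgeR adjusted p = 0.00854). Of 13 regulators of ribosomal protein mRNAs *Eif4ebp2* and *Tsc1* fell (15.4% called against 6.28% of all genes) and the median was -0.115. An unadjusted p-value under 0.05 was reached by 5 of them (38.5% against 27.7%). With the block 1 rose and 2 fell (23.1% against 14.1%). *Eif4ebp2*, a repressor of cap-dependent translation, measured 77.3 ± 4.67 and 55.6 ± 10.8 CPM (log2 fold change -0.47, edgeR adjusted p = 0.0286), and *Tsc1*, an inhibitor of mTORC1, 45.8 ± 2.83 and 35.3 ± 5.29 CPM (-0.38, adjusted p = 0.0279). Every *FRAIL1* muscle was below every Control muscle for both. Of 12 tested genes that handle stalled or surplus ribosomal parts, *Usp10*, which removes ubiquitin from small subunits, fell from 60.8 ± 3.24 to 49.8 ± 5.43 CPM (log2 fold change -0.29, edgeR adjusted p = 0.0326). That is 8.33% of the list, against 6.28% of all genes. With the block 1 gene of this list rose and 1 fell (16.7% against 14.1%). The calls of *Eef1a1* and *Nsa2* were past the threshold in all 24 alternative settings, those of *Eif4ebp2* and *Tsc1* in 18, *Usp10* in 17 and *Eef1b2* in 16. With any of Control muscles 1, 2 and 3 or *FRAIL1* muscle 1 left out, *Eif4ebp2*, *Tsc1*, *Usp10* and *Eef1b2* missed it, at adjusted p-values of at most 0.0831, and each missed it without 2 to 4 of the other muscles as well. *Fau* and *Rack1*, ribosomal proteins whose symbols fall outside the naming rule, did not pass in any setting. *Fau* measured 3.71 ± 0.805 and 3.76 ± 0.494 CPM, and *Rack1* 94.1 ± 4.42 and 96.0 ± 5.70 CPM.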

How the data were processed

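According to the authors' methods, adaptors were trimmed from paired-end reads with Trimmomatic, reads were mapped to mm10 with STAR 2.7.8a, and featureCounts 2.0.1 counted those mapping uniquely to annotated genes. The deposited values are counts, unnormalized whole numbers per gene. The strand setting of the counting is not given in the sources used here. Of 27179 NCBI Gene IDs 25275 were matched to a GRCm38.p6 symbol, and the others held 0.280% of counts. The filter was filterByExpr, the scaling TMM and the main test edgeR's quasi-likelihood F test (version 4.0.16, R 4.3.3, robust), without a term for the mouse, at 0.05 after Benjamini-Hochberg adjustment. On simulated counts with 200 changed genes among 15502, 85.1% of the changed genes that passed the filter were recovered. Of 173 calls 8 were of unchanged genes. The share recovered at fold changes as small as the median of the members (0.107 on the log2 scale) was not tested. The *Rpl3l* to *Rpl3* ratio used counts + 0.5 and an exact permutation test. Windows of 100 bases were searched in GENCODE vM21 transcripts, and Biopython 1.88 aligned the *Rpl3* pair.

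Members and lists were chosen with earlier results of these data known. Named genes were those past the threshold, the 5 largest and 5 smallest fold changes, the 5 highest and 5 lowest levels per kilobase, paralog pairs, stalk genes, *Rps27a*, and list genes past the threshold with *Fau*, *Rack1*, *Eef1a1* and *Eef1a2*. Members named for the fit with the block, *Rps27rt*, *Rps2*, *Rpl39*, *Rps4l* and the markers named were chosen after their values were seen. Some genes that the rule names are not reported here. Alternatives were the block, other scalings and filters, limma 3.58.1 (voom), DESeq2 1.42.0, a fit that was not robust, and leaving out muscles. The spread between muscles is the error given, and no library was a copy of another (chi-square per degree of freedom within a group was 15.2 or more).

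Deviations of same-numbered muscles from their group means over the tested genes correlated at 0.322, 0.197, 0.350, 0.321, 0.0723 and 0.228 for numbers 1 to 6, with a mean of 0.248 against -0.0496 between numbers. The pairing was taken from the design, in which each mouse gave both muscles. For number 5 the highest correlation with a muscle of another number was 0.251.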

Additional observations from a re-analysis of the deposited data

Results flagged for a closer look

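Of 80 sets of 6 muscles checked, 5 held a muscle whose gap to its nearest neighbor was over 0.625 of the group's range, and chance marks about 1 in 20. *Rpl3l* in *FRAIL1* muscle 5 was at 364 CPM, with the next lowest at 567, in the muscle with the highest regenerating-fiber markers. *Rpl36a* in *FRAIL1* muscle 5 was at 3.59 CPM, above the next at 2.87. *Rps23* in *FRAIL1* muscle 6 was at 1.75 CPM, below the next at 2.86. *Usp10* in Control muscle 6 was at 54.6 CPM, below 60.8, and *Eef1a2* in Control muscle 4 at 2019 CPM, below 2205. The causes were not tested.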

How the results depend on the processing

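The fall of the *Rpl3l* to *Rpl3* ratio was under 0.05 in all 15 alternatives (differences of -1.04 to -0.68 with 1 muscle left out), and the median log2 fold change of members was above 0 in all 24 (0.074 to 0.136). The number of members past the threshold was 0 to 8 with 1 muscle left out, against 1. It was 0 without Control muscle 1, 2, 3, 4 or 6 or *FRAIL1* muscle 1 or 4, where 364 to 537 of all genes passed. It was 2 of 85 without Control muscle 5 or *FRAIL1* muscle 6, beside 527 of 15648 and 601 of 15618 genes. It was 7, 8 and 3 of 85 without *FRAIL1* muscle 2, 3 and 5, beside 1579 of 15559, 2110 of 15607 and 969 of 15590 genes. It was 11 with the replicate block, 4 without both muscles numbered 5, 12 without them and with the block, 10 with voom, 10 with the DESeq2 Wald test and 13 with DESeq2 and the block. For all genes the number was 974, 364 to 2110 with 1 muscle left out, 2186 with the replicate block, 871 without both muscles numbered 5, 2305 without them and with the block, 1756 with voom, 2211 with DESeq2 and 2875 with DESeq2 and the block. Among genes named by the rule the block changed no call other than those given, and it ended that of the marker *Col1a2*. Signs near 0 changed: *Eef1a2* was at 0.0037 with upper-quartile scaling, 0.0020 with at least 10 counts in every muscle, 0.041 without both muscles numbered 5, 0.040 with the block as well and 0.017 with voom. With 1 muscle left out it ranged from -0.033 to 0.029, *Rpl10* from -0.065 to 0.049, *Rpl22* from -0.027 to 0.0098, *Rpl7l1* from -0.023 to 0.037, *Rps13* from -0.071 to 0.067 and *Fau* from -0.070 to 0.117. *Rpl39* had too few reads to be tested, and few reads limit the estimates of other low members. The causes were not tested.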
